A study of Mus musculus with 2 samples.

Results

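Open chromatin at the genes of the MEF2 family, of SRF and of myocardin was described in the mouse embryonic heart. The members are 6 genes of the GENCODE M21 annotation on GRCm38/mm10 (*Mef2a*, *Mef2b*, *Mef2c*, *Mef2d*, *Srf* and *Myocd*), out of 21938 protein-coding genes. They were listed by name, and the rule uses no measured value. Accessible regions were taken within 1 kb of every annotated start and in each locus, meaning the gene body with 100 kb on each side. The 6 loci held 135 of the 98924 regions found in both replicates.

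The samples were hearts of wildtype FVB embryos at E11.5, staged at 49 to 51 somites, and both replicates belong to a single group of 2 hearts per replicate, with about 50000 cells per reaction. ATAC-seq marks accessible DNA through insertion of sequencing adapters by the transposase Tn5. With 1 group there is no comparison between conditions and no test, so values of both replicates are given side by side. Whole hearts hold several cell types, and a low value in many cells and a high value in few cells cannot be told apart.

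MEF2 proteins are MADS-box transcription factors that bind an A/T-rich site and drive muscle differentiation, and MEF2C is needed for looping of the heart tube and formation of the right ventricle. SRF is the related MADS-box factor that binds CArG boxes in front of cytoskeletal and contractile genes. Myocardin, the product of *Myocd*, binds no DNA by itself and acts as a potent coactivator of SRF in cardiac and smooth muscle.

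Fold enrichment is the ratio given for each peak, in which summit reads plus 1 are divided by the expected reads plus 1. The background recovered from the steps of this ratio was 2.68 reads in replicate 1 and 2.98 in replicate 2, so summits can be given in reads. Intervals on these reads are exact Poisson intervals at 95% and cover counting error only. The lists held 118027 and 114783 peaks, of which 81.0% and 82.8% overlapped a peak of the other replicate. A shared region at a start was found for 67.6% of all protein-coding genes. Marker genes of cardiomyocytes had one in 5 of 5 cases, those for endocardium and endothelium in 4 of 4 and those for epicardium in 4 of 4. Of the markers of other tissues, 1 of 3 skeletal muscle genes had one (*Myod1*, 4.89 and 5.53), as did 0 of 3 liver genes, 0 of 3 neuronal genes and 3 of 3 erythroid genes (12.2 to 26.6 over both replicates). The part that blood cells have in the values below was not tested.

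All 6 members had a shared region within 1 kb of at least 1 start, beside 67.6% of all protein-coding genes. Of the 53 distinct starts annotated for the members, 34 had such a region, beside 58% of all distinct starts of protein-coding genes. The starts were grouped where they lie within 1 kb of each other, and *Mef2c* has 9 such clusters against 2 for *Mef2b* and for *Srf*. The order of the members by their highest own promoter was the same in both replicates, with *Srf* first, then *Mef2d*, *Mef2b*, *Mef2a*, *Mef2c* and *Myocd* last. The place of *Mef2b* is that of a region shared with starts of *Borcs8* and *Rfxank*, and its other promoter region was below that of *Mef2c* (20.4 and 17.1). Between neighbours in this order the ranges over the replicates did not overlap. The counting intervals of their summit reads did overlap in each replicate, except between *Mef2c* and *Myocd* in replicate 2. Most steps of the order are thus not separated by these intervals, and differences between neighbours were not tested. *Srf* (127 to 176 reads in replicate 1 and 129 to 178 in replicate 2) lay clear of *Myocd* (48.4 to 80.6 and 38.0 to 67.1). Among protein-coding genes with a region at a start, the median of the mean promoter enrichment was 24.5. The members lay on both sides of it, with means from 15.2 at *Myocd* to 39.7 at *Srf*.

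**Figure D1:**
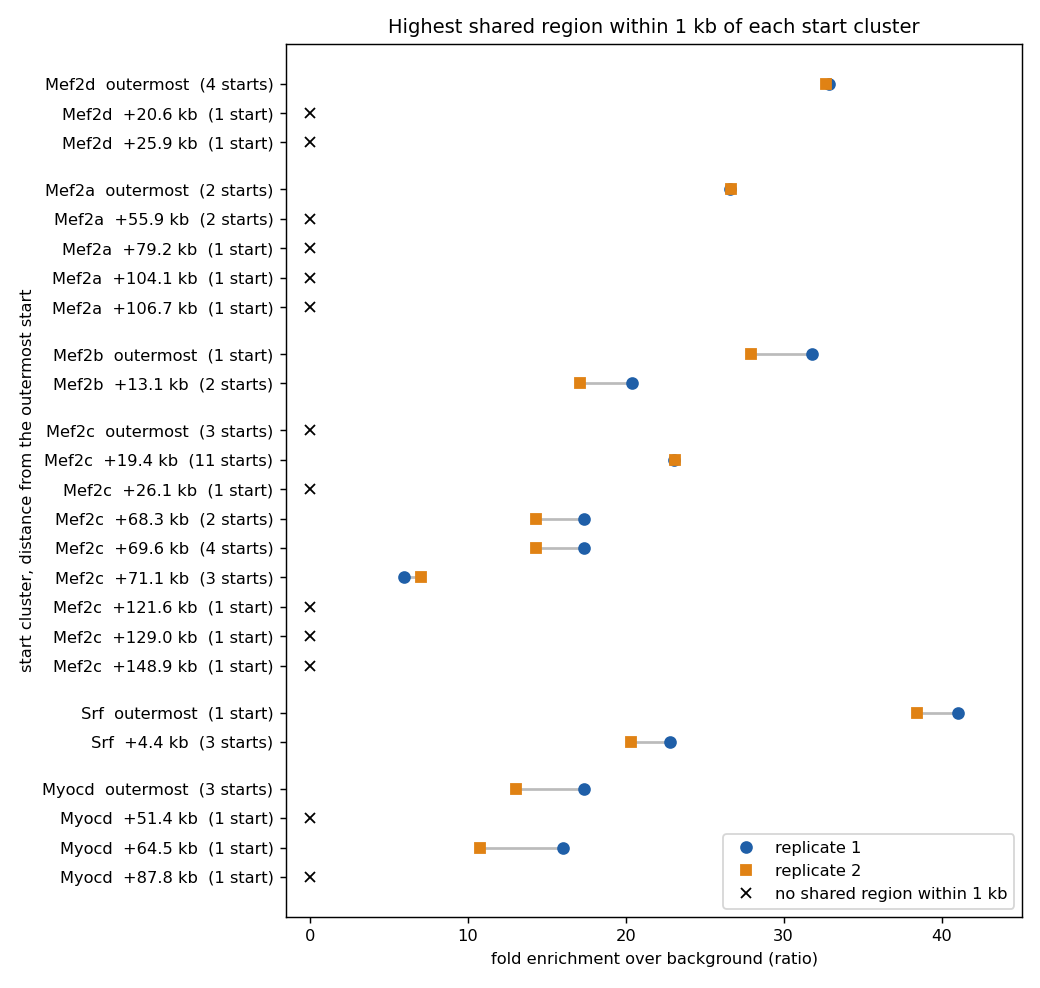
Fold enrichment (ratio over background, horizontal axis) of the highest shared region within 1 kb of each start cluster, in replicate 1 (circles) and replicate 2 (squares), with the distance of the cluster from the outermost start of the gene on the vertical axis and a cross where no shared region lies within 1 kb. The outermost cluster holds the highest value at *Srf* (41.0 and 38.5), *Mef2d*, *Mef2a*, *Mef2b* and *Myocd*, while that of *Mef2c* has no region and its cluster at +19.4 kb has 23.1 in both replicates.

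*Srf* is a compact gene of 7.85 kb on the minus strand (chr17:46548329-46556175). The region over its outermost start (chr17:46554555-46557014, 2460 bp) reached 41.0 and 38.5 in replicates 1 and 2, or 150 and 152 summit reads. It exceeded 98.8% and 98.4% of all peaks of the replicates and was the highest region of the *Srf* locus in both. The DNA just upstream of this start is shown because it holds matches to the CArG box, the binding sequence of SRF itself (CC, 6 bases each A or T, GG). The 200 bases end at the base before the start and are given on the strand of the gene (chr17:46556176-46556375, GRCm38, minus strand, outside exons), with CArG matches in capitals.
Srf upstream: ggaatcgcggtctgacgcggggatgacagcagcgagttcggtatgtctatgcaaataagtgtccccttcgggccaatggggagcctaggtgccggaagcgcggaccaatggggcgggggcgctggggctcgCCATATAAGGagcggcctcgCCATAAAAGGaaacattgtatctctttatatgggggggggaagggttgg
The stretch holds 2 CArG matches in tandem. They lie inside the shared region, and among 32851 RefSeq promoters (GRCm38, 250 bases before to 50 after a start) 1.63% held a CArG match. The window of 300 bp at the summit of this region held both, beside 1.26% of all promoter windows with at least 1. A match in letters is not evidence that SRF occupied it in these hearts.

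A second accessible region lay inside *Srf* (chr17:46552699-46553842, 1144 bp), with 22.8 and 20.4. It reached within 1 kb of 1 of the 3 inner starts, 4.4 kb downstream of the outermost one. No distal shared region, meaning one over 1 kb from any protein-coding start, fell in the *Srf* body. The 8 distal regions of the locus lay inside other genes, with 5 in *Ptk7* (a Wnt pathway receptor), 2 in *Ttbk1* and 1 in *Klc4*. The highest by the mean of both replicates were at +97.6 kb in *Ttbk1* (8.69 and 7.79), at -68.3 kb in *Ptk7* (8.42 and 8.04) and at -38.7 kb in *Ptk7* (6.79 and 7.04). The other regions were at starts, including those of 7 neighbouring protein-coding genes, among which the *Cul7* and *Mrpl2* region was highest (29.1 and 28.9).

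*Myocd*, a gene of 93.4 kb on the minus strand of chromosome 11 (chr11:65176561-65269989), had the lowest main promoter among the members. The region over its 3 outermost starts (chr11:65269731-65270631, 901 bp) had 17.4 in replicate 1 and 13.1 in replicate 2, or 63 and 51 reads. A smaller region followed within 1 kb upstream of it (6.25 and 5.03). The start of Myocd-204, 64.5 kb into the gene, had a region of its own (16.0 and 10.8), and the starts of Myocd-201 and Myocd-206 had none within 1 kb. The promoter was not the most accessible place of the locus in either replicate. That was an intronic region at +60.4 kb (chr11:65209308-65209894, 587 bp) with 20.1 and 16.8, or 73 and 66 reads. Its counting interval (57.2 to 91.8 reads in replicate 1 and 51.0 to 84.0 in replicate 2) overlapped that of the promoter.

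The *Myocd* body held 7 distal shared regions, 5 lay upstream and 3 downstream, the latter inside *Arhgap44*. Of those upstream, the 3 farthest (-96.1 to -96.9 kb) each share a peak of 1 replicate or of both with a region beside them. The intronic regions at +61.7 kb (10.3 and 8.30), +54.5 kb (8.96 and 5.53) and +67.6 kb (6.79 and 4.27) flank the one at +60.4 kb, and together with the Myocd-204 region they put 5 regions within 13.3 kb. Further regions were found at +43.0 kb (11.7 and 10.3) and outside protein-coding genes at -34.0 kb (12.2 and 13.3), which ranked seventh in replicate 1 and second in replicate 2. At -96.1 kb, a region at the start of the lincRNA Gm12295 had 14.7 and 10.8. All 3 of the distal regions in *Arhgap44* were higher in replicate 1, with 14.1 and 7.54 at the farthest one. Across the locus, 16 of 19 regions were higher in replicate 1, beside 66.2% of all shared regions.

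*Mef2c* (chr13:83504034-83667080, plus strand, 163 kb) is the member with the most annotated starts, 27, and the one with the most start clusters without a region. The outermost cluster, at which 6 protein-coding transcripts begin, had no peak of either replicate within 10.8 kb. The next cluster, 19.4 kb downstream, holds 11 starts, all with a region (chr13:83523170-83526406, 3237 bp) of 23.1 in replicate 1 and 23.1 in replicate 2. The clusters at +68.3 kb and +69.6 kb had 17.4 and 14.3 at the same region (chr13:83571869-83572684). The cluster at +71.1 kb had 5.98 and 7.04, in a region that covers the starts at +69.6 kb (chr13:83573335-83574530). The single starts at +26.1, +122, +129 and +149 kb had no shared region within 1 kb.

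The 200 bases upstream of the clusters at the outermost start, at +19.4 kb and at +68.3 kb are shown to set a start without a peak beside starts with one, on the plus strand of GRCm38 with CG dinucleotides in capitals. They cover chr13:83503834-83504033, chr13:83523273-83523472 and chr13:83572148-83572347, none of it exonic.
Mef2c outermost start, no region: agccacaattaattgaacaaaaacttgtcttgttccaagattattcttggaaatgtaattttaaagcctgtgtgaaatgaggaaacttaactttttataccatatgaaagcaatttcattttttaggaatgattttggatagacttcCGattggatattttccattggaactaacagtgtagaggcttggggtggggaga
Mef2c +19.4 kb, 23.1 and 23.1: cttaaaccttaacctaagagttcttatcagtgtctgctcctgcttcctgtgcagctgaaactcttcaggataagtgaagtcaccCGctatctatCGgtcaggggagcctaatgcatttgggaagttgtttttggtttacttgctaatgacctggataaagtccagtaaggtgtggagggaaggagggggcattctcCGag
Mef2c +68.3 kb, 17.4 and 14.3: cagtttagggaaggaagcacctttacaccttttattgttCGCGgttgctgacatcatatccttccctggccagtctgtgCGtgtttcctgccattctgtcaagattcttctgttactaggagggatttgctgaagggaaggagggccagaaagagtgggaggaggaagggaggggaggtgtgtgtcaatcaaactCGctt
The stretch without a region had 33.5% G or C and 1 CG, that at +19.4 kb had 47% and 3, and that at +68.3 kb had 50% and 4. The 200 bases of *Srf* hold 15 CG at 59.5% G or C. The stretch at +19.4 kb precedes the first of 11 starts, and the 300-bp window at the summit of their region had 60% G or C and an observed to expected CpG ratio of 1.11, beside 0.822 in the summit window of the *Srf* promoter. With 3 stretches this is a description of these starts only.

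*Mef2c* had the largest number of distal regions, 31 of the 98 in the 6 loci. No other protein-coding gene starts in its locus. The locus density of 8.54 distal regions per 100 kb exceeded that of 93.2% of protein-coding loci, and the count exceeded that of 97.7%. Of these, 2 lay upstream (-53.0 and -22.5 kb), 15 lay in the gene body and 14 downstream. The highest by the mean of both replicates was intronic, at +62.1 kb (chr13:83565612-83566598, 987 bp), with 29.1 and 25.1, or 106 and 99 reads. The region at +241 kb (chr13:83744733-83745642), beyond the end of the gene, had 26.1 and 26.6 and was the highest in replicate 2. The intronic region at +14.3 kb (chr13:83517816-83518886), which lies between the outermost cluster and that at +19.4 kb, had 25.5 and 24.4. Further regions stood at +28.1 kb (16.6 and 13.6), at +100.1 kb (16.0 and 14.3) and at +211 kb (15.8 and 13.1). The first 3 of these distal regions were above the main *Mef2c* promoter in both replicates, but their counting intervals overlapped its own (67.0 to 104 reads in replicate 1 and 73.3 to 112 in replicate 2).

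Between +217 and +236 kb, 10 further regions of the *Mef2c* locus gathered over a stretch of noncoding transcription units that includes the miRNA gene Mir9-2 and the lincRNAs C130071C03Rik and Gm26803. Of these regions, 6 share a peak of 1 replicate with the region beside them, so the count exceeds that of separate peaks. MiR-9 is best known from the developing nervous system. The highest of them was at +227 kb (chr13:83730247-83731664) with 23.6 and 22.9, at starts of both lincRNAs. The regions at the start of Mir9-2 had 9.78 and 7.04 at +234 kb and 4.07 and 3.52 at +236 kb. Distance alone does not assign any of these regions to *Mef2c*.

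*Mef2d* (chr3:88142372-88172086, plus strand, 29.7 kb) had the highest promoter of the MEF2 family. The region over its 4 outermost starts (chr3:88141467-88144470, 3004 bp) had 32.9 and 32.7, or 120 and 129 reads. The starts of the processed transcripts Mef2d-205 and Mef2d-207, at +20.6 and +25.9 kb, had none. A distal region at +35.5 kb (chr3:88177294-88178429), 5.21 kb past the end of the gene, reached 32.9 and 35.7, equal to the promoter in replicate 1 and above it in replicate 2, where the counting intervals overlapped (119 to 166 and 108 to 153 reads). It overlaps an exon and the start of the antisense transcript 1700113A16Rik. A region at -3.5 kb (chr3:88138169-88139585, 1417 bp) had 22.8 and 21.9 and one at -1.6 kb 10.3 and 6.54. Within the body, the regions at +8.0 kb (9.51 and 11.8) and +6.9 kb (9.51 and 7.04) share 1 peak of replicate 1, so their equal value there is that of the common peak. With 5 distal regions in a short body, *Mef2d* had 16.8 per 100 kb of body, beside 4.5 per 100 kb in its flanks.

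*Mef2a* (chr7:67231163-67372858, minus strand, 142 kb) had the reverse layout. Its outermost starts had the longest region of the 6 loci (chr7:67371458-67374712, 3255 bp), with 26.6 in replicate 1 and 26.6 in replicate 2. The 5 inner starts had no shared region within 1 kb. Only 3 distal shared regions fell in the body, or 2.12 per 100 kb, beside 9.5 per 100 kb in the flanks. All 3 lay also in the annotated body of *Lysmd4*, which overlaps that of *Mef2a*. None of the 22 distal regions of the locus exceeded 10 in both replicates. By the mean of both replicates, the highest were at -49.0 kb (12.2 and 9.05), at +102 kb inside the gene (10.9 and 9.05, on an exon) and at -74.0 kb (10.9 and 8.80). From -42.2 to -98.6 kb, 11 regions, 2 of which share a peak, lay outside protein-coding genes, spanning 4.62 to 12.2 in replicate 1 and 2.77 to 9.05 in the other. The highest region of the locus was the promoter of the neighbour *Lysmd4* (27.2 and 28.2).

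*Mef2b* (chr8:70139711-70167488, plus strand, 27.8 kb) lies in the most gene-dense of the 6 loci, with starts of 12 other protein-coding genes. Its outermost start, that of Mef2b-205, shares a region with *Borcs8* and *Rfxank* (chr8:70138822-70140118), which had 31.8 and 27.9. Accessibility there cannot be told apart between these genes. The starts of the other 4 *Mef2b* transcripts, 13.1 kb downstream, had a region of 514 bp with 20.4 and 17.1 that no other protein-coding start shares. Taken by this region, *Mef2b* would come after *Mef2c* in the order of promoters. The 2 distal regions in the body were at +18.9 kb (12.2 and 13.1) and +27.2 kb (5.16 and 5.78), and the highest distal region outside it was in *Hapln4* at -51.6 kb (7.61 and 7.54). Of its 20 regions 10 were at promoters of neighbours only, among them *Slc25a42* with 47.8 and 45.0, the highest region of all 6 loci.

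**Figure D2:**
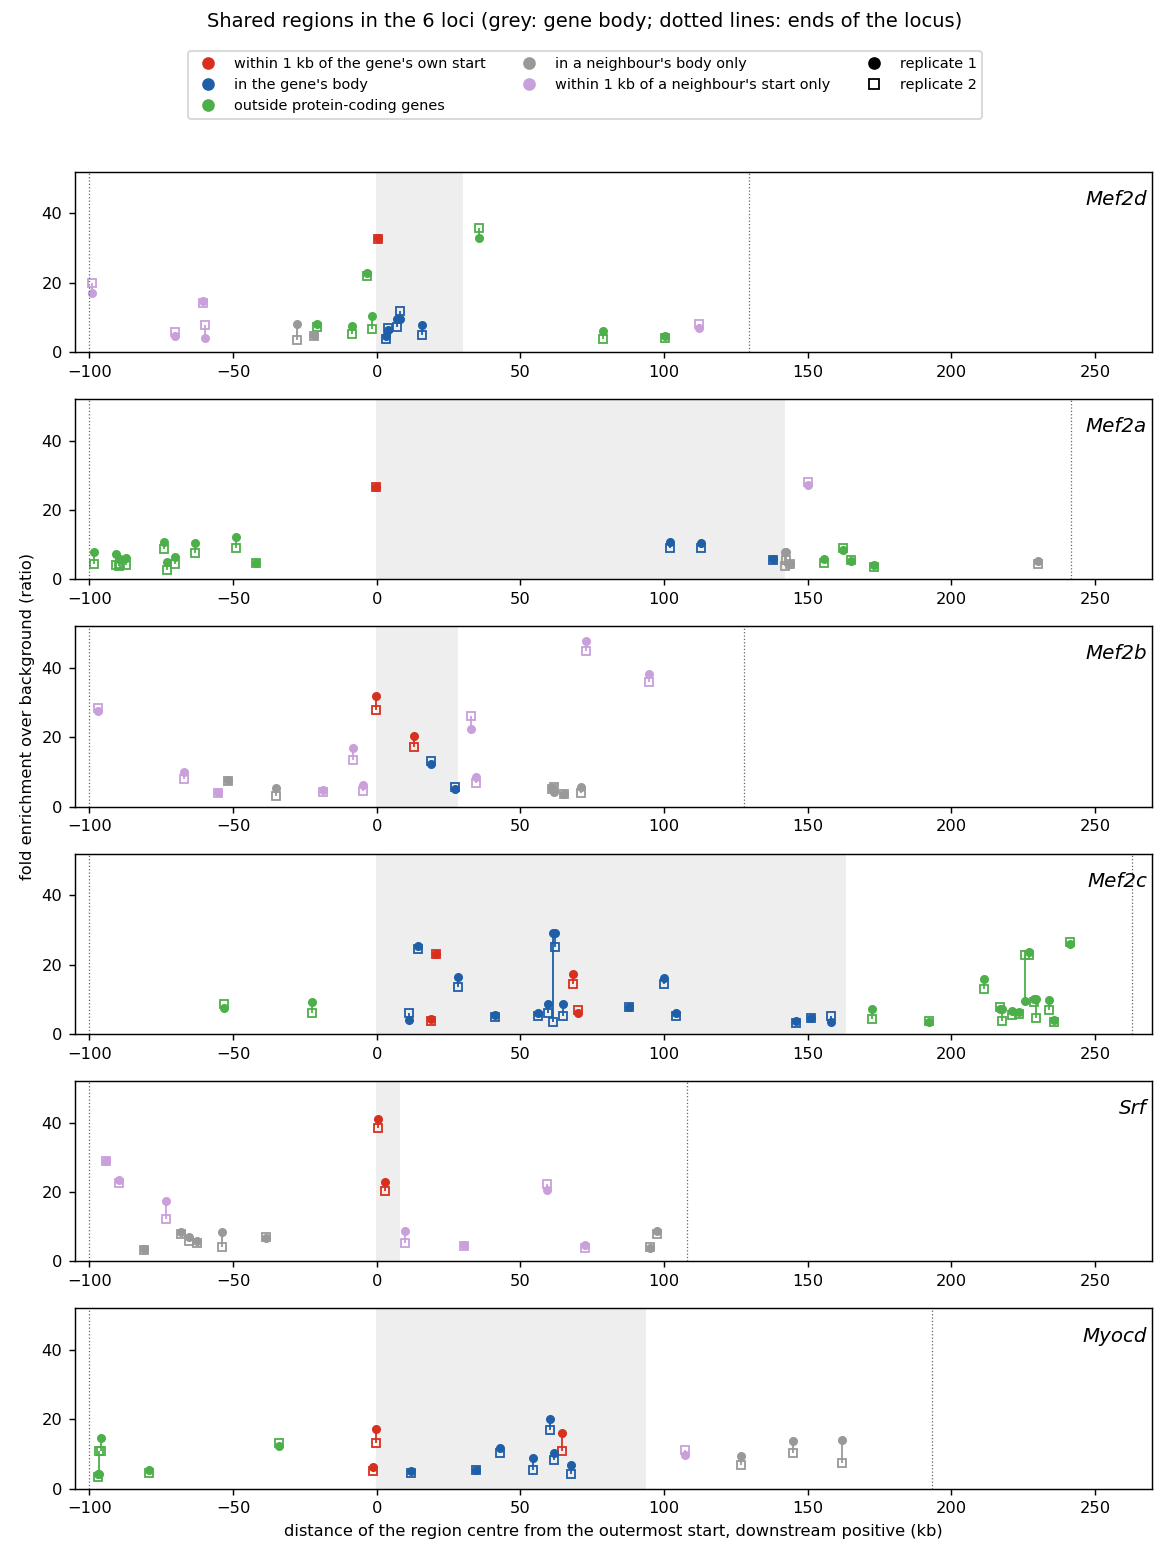
Fold enrichment (ratio over background) of every shared region in the 6 loci against the distance of its centre from the outermost start of the gene in kb, downstream positive, with replicate 1 as circles, replicate 2 as open squares, colours for the class of region and the gene body in grey. The 35 regions of *Mef2c* lie mostly in the body and the downstream flank, with none between +104.3 and +145.8 kb. The 22 distal regions of *Mef2a* lie mostly in the flanks, and *Srf* has regions of neighbours and its own starts but no distal region in its body.

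Over all 6 loci, 98 regions were distal, 13 lay at starts of the members and 24 only at starts of neighbours. Of the distal ones, 32 were in the body of a member, 23 in the body of another gene only and 43 outside protein-coding genes, and 13 were at a noncoding start. A fold enrichment above 20 in both replicates was reached by 6 of the 98 distal regions (6.12%), beside 1.74% of all distal shared regions, with 4 at *Mef2c* and 2 at *Mef2d*. A value above 10 in both was reached by 15 (15.3%), beside 12% of all distal shared regions, with 7 at *Mef2c*, 5 at *Myocd*, 2 at *Mef2d*, 1 at *Mef2b* and none at *Mef2a* or *Srf*. Distal regions per 100 kb of locus came to 8.54 at *Mef2c*, 6.44 at *Mef2a*, 6.09 at *Mef2d*, 5.11 at *Myocd*, 3.85 at *Srf* and 3.51 at *Mef2b*. The median of all protein-coding loci was 3.21, with quartiles of 1.41 and 5.31. *Mef2c*, *Mef2a* and *Mef2d* were thus above the upper quartile, and *Myocd*, *Srf* and *Mef2b* between it and the median. With a q-value limit of 1e-10, 8 of the 24 regions of the *Mef2a* locus were left (33.3%), beside 45.8% of all shared regions. The other loci kept 11 of 20 at *Mef2d* and at *Mef2b*, 19 of 35 at *Mef2c*, 10 of 17 at *Srf* and 11 of 19 at *Myocd*.

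**Figure D3:**
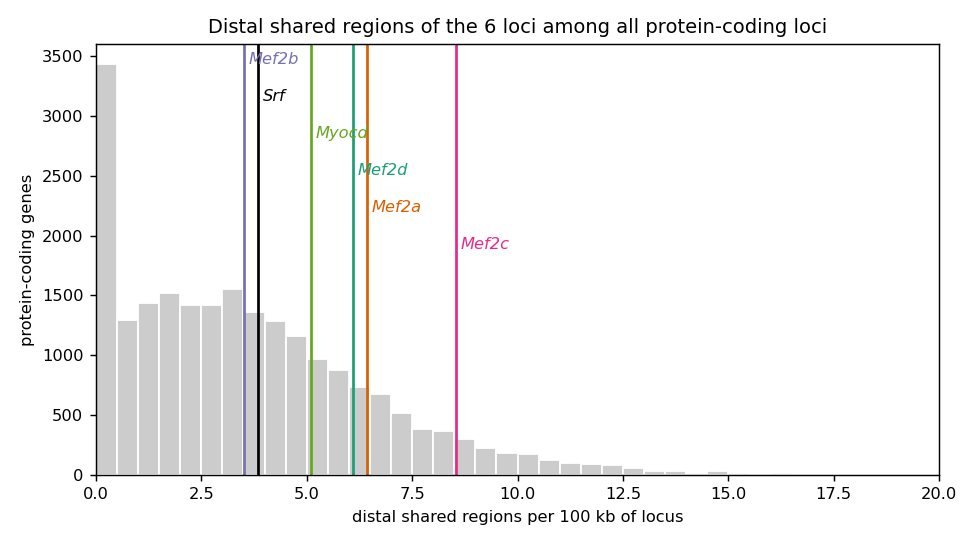
Number of protein-coding genes (vertical axis) by the distal shared regions per 100 kb of their locus (horizontal axis, bins of 0.5), with a line for each of the 6 members. The lines run from *Mef2b* at 3.51 and *Srf* at 3.85 to *Mef2c* at 8.54, all above the median of 3.21, and 6 genes past 20 are not drawn.

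The values of both replicates followed each other over the 135 regions (Spearman rho of 0.812, a description over regions that share libraries and, in 17 cases, a peak with another region). In replicate 1, 102 regions were higher (75.6%), beside 66.2% of all shared regions. Replicate 1 spanned 3.53 to 47.8 and replicate 2 spanned 2.77 to 45.0, with medians of 7.88 and 6.54, beside 6.52 and 5.78 over all shared regions. Both summits lay inside the region in 123 cases, at a median of 47 bp from each other. Beside the shared regions, 29 peaks of replicate 1 and 23 of replicate 2 had no counterpart, none above 5.16 and 4.78.

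**Figure D4:**
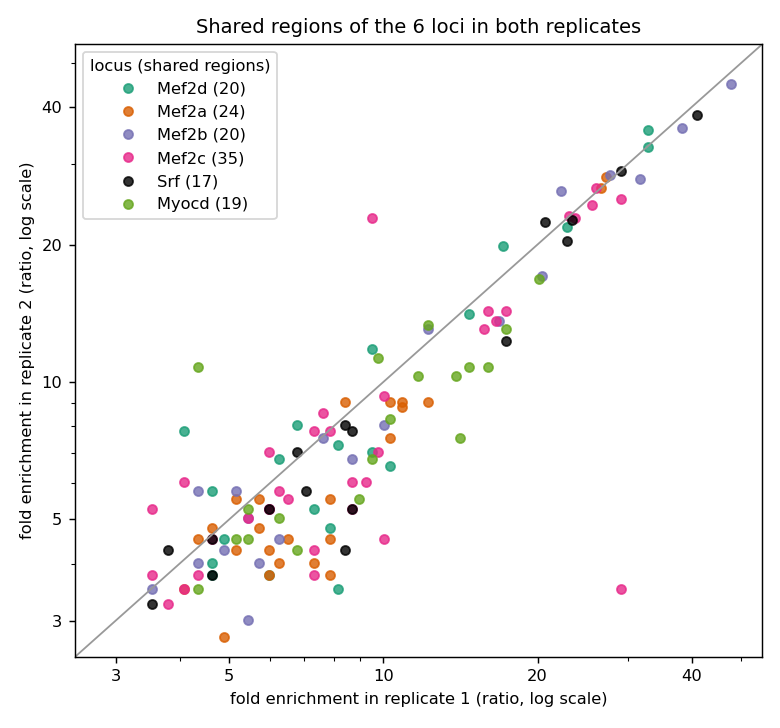
Fold enrichment of the 135 shared regions in replicate 1 (horizontal axis, ratio, log scale) and replicate 2 (vertical axis, ratio, log scale), coloured by locus, with the line of equal values. Most points (102 of 135) lie below the line, and the 3 points farthest from it belong to regions that share a peak with a neighbouring region.

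Sequence at the summits was read in windows of 300 bp around the replicate 1 summit, 91 of them distal. The MEF2 site (CTA, 4 bases each A or T, TAG, the same on both strands) is the sequence that the proteins of *Mef2a* to *Mef2d* bind. It was present in 6 of the 91 distal windows (6.59%), beside 2.47% of all distal windows. With windows of 200 bp the count was 3 of 91 (3.30%), beside 1.93%. The sites were in 2 windows at *Mef2c*, 2 at *Mef2d*, 1 at *Mef2a* and 1 at *Myocd*. The 80 bases around each are shown because they hold the binding sequence of the MEF2 family inside loci of the members. They are on the plus strand of GRCm38 with the MEF2 site in capitals, outside exons. They are chr13:83565960-83566039 and chr13:83603951-83604030 for *Mef2c*, chr3:88140758-88140837 and chr3:88150187-88150266 for *Mef2d*, chr7:67230273-67230352 for *Mef2a* and chr11:65257994-65258073 for *Myocd*.
Mef2c +62.1 kb: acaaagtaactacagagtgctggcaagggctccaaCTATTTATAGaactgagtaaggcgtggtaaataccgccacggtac
Mef2c +100.1 kb: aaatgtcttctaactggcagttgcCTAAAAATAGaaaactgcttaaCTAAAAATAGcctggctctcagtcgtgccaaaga
Mef2d -1.6 kb: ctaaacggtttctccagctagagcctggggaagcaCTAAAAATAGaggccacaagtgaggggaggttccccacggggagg
Mef2d +8.0 kb: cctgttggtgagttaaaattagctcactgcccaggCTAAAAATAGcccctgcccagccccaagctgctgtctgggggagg
Mef2a +142.4 kb: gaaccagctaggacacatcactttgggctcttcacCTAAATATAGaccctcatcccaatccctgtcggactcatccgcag
Myocd +12.1 kb: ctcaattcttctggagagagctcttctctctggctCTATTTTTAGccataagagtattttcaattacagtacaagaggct
The first of them lies in the distal region of the *Mef2c* locus with the highest mean (29.1 and 25.1). The intronic region at +100.1 kb (16.0 and 14.3) has 2 sites that start 22 bp apart. The sites of *Mef2d* sit in regions of 10.3 and 6.54 and of 9.51 and 11.8, on either side of its open promoter. The site of *Mef2a* is in a region just past the 3' end of the gene and inside *Lysmd4* (7.88 and 5.53), and that of *Myocd* lies in the summit window but just past the end of the shared region (5.16 and 4.53). The RefSeq promoter of *Mef2a* held a further MEF2 site, beside 0.557% of all RefSeq promoters. None of the other RefSeq promoters of the members held one, and 5 of the 6 members had a RefSeq promoter to read. In the summit windows at starts of the members the site was in 0 of 13, beside 0.828% of all promoter windows.

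The CArG box was in 0 of 91 distal windows, beside 1.84% of all distal windows. Besides *Srf*, the locus of *Mef2b* had 1, in a region at a start of *Rfxank* at -4.7 kb (6.25 and 4.53). The GATA sequence AGATAA was in 16 (17.6%), beside 26.1%, with 6 at *Mef2a*, 6 at *Myocd* and 4 at *Mef2c*. The NKX2-5 sequence TNAAGTG was in 16 (17.6%), beside 18.4%, with 5 each at *Mef2c* and *Myocd* and 3 at *Mef2a*. TEAD sequence ACATTCC was in 5 (5.49%), beside 8%, with 3 at *Mef2a* and 2 at *Mef2d*, and the T-box sequence AGGTGTGA in 0, beside 1.38%. All were searched on both strands, and the windows of neighbouring regions can share a locus and base composition. The median G or C content of the distal windows was 52.3%, beside 49% for all distal windows.

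The genes that work with these factors were read the same way, from lists chosen with earlier results known. The SRF and MEF2 cofactors and partners *Mrtfa*, *Mrtfb*, *Mamstr*, *Elk1*, *Elk3*, *Elk4* and *Fhl2* had a region at a start in 7 of 7 cases, beside 67.6% of all protein-coding genes, from 12.8 and 15.8 at the ETS factor *Elk3* to 48.9 and 44.5 at *Mrtfa*, a myocardin-related actin sensor. The class IIa deacetylases, which bind MEF2 proteins and repress their targets, had one in 4 of 4, beside the same 67.6%, with 58.7 and 51.0 at *Hdac4*, 19.8 and 25.6 at *Hdac5*, 17.4 and 12.6 at *Hdac7* and 17.4 and 18.1 at *Hdac9*. Among muscle genes with known MEF2 or SRF sites, 14 of 14 had one, again beside 67.6%. The lowest was the skeletal actin gene *Acta1* (5.70 and 4.27) and the highest *Vcl*, which encodes vinculin (47.5 and 45.8). *Tnnt2*, the cardiac troponin T gene, had 15.7 distal regions per 100 kb and *Nppa*, the atrial natriuretic peptide gene, 13.4, and *Ckm*, the muscle creatine kinase gene, had 8.71, all above *Mef2c*. The smooth muscle genes *Tagln* and *Cnn1* had 1.94 and 1.43 per 100 kb, below the median of all loci, and the smooth muscle actin gene *Acta2* had 4.66, above it. The median of the 14 muscle genes was 5.71.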

How the data were processed

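ATAC-seq of E11.5 wildtype hearts was analysed from the deposited peak lists of 2 replicates. Per the labels and methods, the authors used Trim Galore 0.6.6 with cutadapt for trimming, Bowtie2 2.4.2 for mapping to GRCm38/mm10 and SAMtools 1.12 for filtering, which leaves repeated sequence underrepresented, and called peaks in each replicate with MACS2. The largest p-values in the deposited lists, 0.000476 and 0.00104, are below the stated calling limit, and no peak was added or removed. Deposited fold enrichment is a ratio at the summit. The deposited −log10 p-values and q-values and the authors' score, a whole number scaled from the q-value, were used only as limits or not at all. Members and gene lists were chosen with earlier results of these data known.

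Replicate 1 peaks were trimmed to their overlap with replicate 2 peaks (bedtools 2.31.1, at least 1 bp) and merged where they touch. A region carries the fold enrichment of the highest peak of each replicate over it. Starts came from GENCODE M21, and sequence from the GRCm38 reference, which is not the FVB strain. Read totals are not part of the lists, so depth is known only through the recovered background. Named sites are every start cluster, the 3 highest distal regions per locus and the highest in the body, besides the listed genes. The regions described around *Myocd* +60.4 kb, in the Mir9-2 stretch and upstream of *Mef2a* were named after their values were seen. Alternatives were limits of 0.00001 on p and 1e-10 on q, a reciprocal overlap of 50%, each replicate alone, merged whole peaks, other flanks and other start windows, and motif windows added after the data were seen. Overlap code was tested on simulated data. The scientific libraries were pysam 0.24.0, SciPy 1.17.1, pandas 2.3.3 and NumPy 2.4.6 under Python 3.11.15, with plots from Matplotlib 3.10.9.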

Additional observations from a re-analysis of the deposited data

Results flagged for a closer look

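Peaks called in 1 replicate alone do not enter the shared regions, and 4 of them lay within 1 kb of a member start. In replicate 1 they were at Mef2a-210 (5.16, 29 bp from the start), Mef2c-211 (4.62, 509 bp) and Mef2c-216 (3.80, 41 bp). In replicate 2 there was 1, at Srf-203 (4.02, 506 bp). They had 13 to 18 reads at the summit.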

How the results depend on the processing

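All 6 member genes kept a shared region at a start under each of the 9 alternatives. Member starts with one were 31 of 53 with 500 bp windows and 38 of 53 with 2 kb windows, beside 34 of 53. For protein_coding transcripts they were 27 of 37. The share of all distinct starts, 58%, holds for 1 kb windows and all transcripts. It was not computed for the other windows or for protein_coding transcripts. With a q-value limit of 1e-10 the regions in the 6 loci fell to 70 and the distal ones to 43. Flanks of 50 kb gave 84 and 61, and flanks of 200 kb gave 209 regions. Each replicate alone gave 156 to 157 regions, 115 to 116 distal regions, 6 genes and 35 to 37 starts. The q-value limit left 8 of 24 regions at *Mef2a* and 19 of 35 at *Mef2c*, and flanks of 50 kb left 5 of 17 at *Srf*. MEF2 sites were in 3 distal windows of 200 bp, 5 with replicate 2 summits and 7 with 500 bp, and the CArG count of 0 became 1 with replicate 2 summits and 1 with 500 bp. No paired analysis was possible because the samples form a single group. No alternative varied depth, and the lowest peak of each list had 9 summit reads.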
